A study of Mus musculus with 2 samples.

Results

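Mitochondrial ribosomal protein genes were examined in ESREs (Extensively Self Renewing Erythroblasts) of the mouse, which are red blood cell precursors able to divide for long periods in culture. The members were the rows of the gene table whose symbol begins with Mrpl or Mrps and a digit, which gave 75 of 25791 rows, 46 Mrpl and 29 Mrps. One group of ESREs had matured for 1 day (maturation) and the other was proliferating (expansion), both on a C57/bl6 background with no allele or agent named in the sample labels. The series title speaks of ESREs from transgenic β-Yac mice, and whether these samples carried the transgene is not given in the labels. RNA was sequenced, and the authors deposited 1 FPKM value per gene and group, that is, fragments scaled to transcript length and to the mapped fragments of the library. The series text speaks of biological duplicates, but the table holds 1 value for each group, so no difference below has a replicate error or a test.

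The mitochondrial ribosome translates the few proteins encoded by mitochondrial DNA, all of them subunits of the respiratory chain and the ATP synthase. Its ribosomal RNAs come from mitochondrial DNA, whereas its proteins are encoded in the nucleus, made in the cytosol and imported. Some of these proteins descend from the bacterial ribosome and others exist only in mitochondria. Erythroblasts need mitochondria for heme synthesis, whose first and last steps take place there, and lose them before the red cell is mature.

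The labelled cell type was checked against markers. All 9 erythroid markers were at 1 FPKM or more in maturation and 8 of 9 in expansion, with Alas2 at 7.89 and 0.975 FPKM. The summed FPKM of the 9 was 13330 in maturation and 3093 in expansion. Most of it came from the globin genes Hba-a1, at 8370 and 1951 FPKM, and Hbb-b1, at 4739 and 1059. Mast cell and basophil markers summed to 0.195 FPKM in maturation and 11.7 in expansion (0 and 2 of 5 at 1 FPKM or more, Mcpt8 at 0 in both). Megakaryocyte markers summed to 2.28 and 22.03 FPKM (0 and 3 of 5), and macrophage markers to 0.596 and 1.34 (0 and 1 of 5). Granulocyte markers summed to 0.0239 FPKM in maturation and 0.0170 in expansion, and lymphocyte markers to 0.0983 and 0.0787, with no marker at 1 FPKM in either group. The part of these differences in the members' values was not tested, and in bulk RNA fewer cells of a type cannot be told apart from less RNA per cell.

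All 75 members were expressed in both groups. The lowest value was 1.65 FPKM in maturation, for Mrpl1, and 1.84 FPKM in expansion, for Mrps31. The median member stood at 8.19 FPKM in maturation and 8.80 FPKM in expansion. The summed FPKM of the members was 815 in maturation and 834 in expansion, or 0.196% and 0.203% of the sum over all rows. At least 10 FPKM was reached by 30 members in maturation and 32 in expansion, and 19 and 15 members lay below 5 FPKM. The highest member exceeded the lowest 27.0-fold in maturation and 36.2-fold in expansion. The order of the members was much alike in the groups, with a Spearman rho of 0.935 across the 75 genes, which are not independent replicates and share both libraries. On log2 of FPKM plus 1, Pearson r was 0.941 for members and 0.941 for all rows at 1 FPKM or more in a group. It was 0.825 for such rows whose mean FPKM lay within the members' range. For scale, the median cytosolic ribosomal protein row was 32.4 times as high as the median member in maturation and 37.7 times in expansion.

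**Figure D1:**
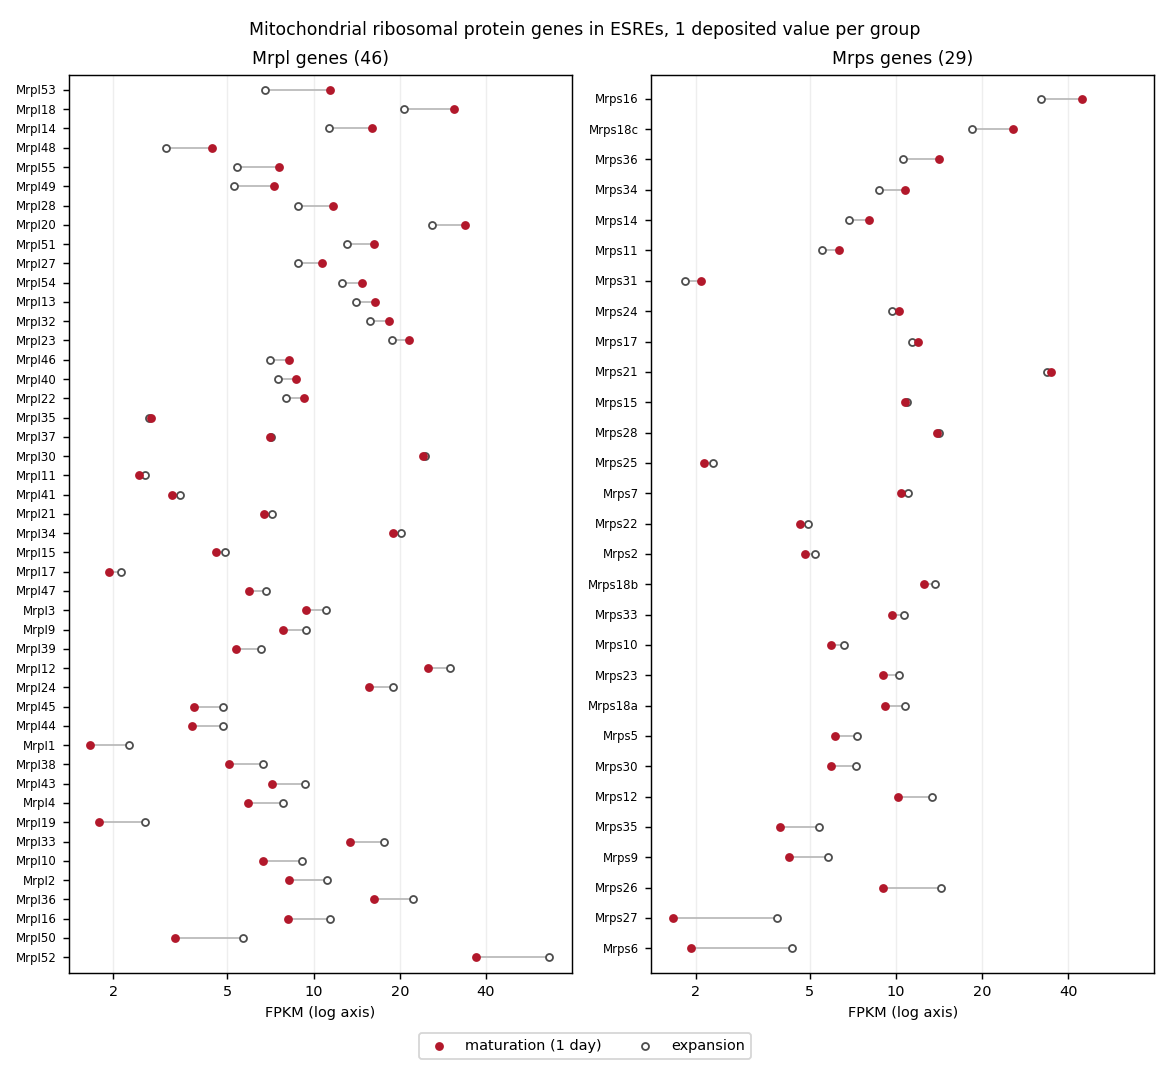
FPKM of each of the 46 Mrpl and 29 Mrps genes on a log axis, with maturation as filled and expansion as open points and a line joining the 2 deposited values of a gene. Genes run from the highest log2 ratio at the top to the lowest at the bottom; Mrpl53 and Mrps16 lead their panels, and Mrpl52 and Mrps6 end them.

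As a group the members differed little between maturation and expansion. The log2 ratio of maturation over expansion, computed as log2 of FPKM plus 1 in each group, had a median of -0.08 over the 75 members and -0.25 over the 9263 rows expressed at 1 FPKM or more in a group. The sign of the member median depended on scaling, since it was 0.02 when the groups were rescaled to equal sums without small RNA rows and 0.16 when ratios were centred on all expressed rows. No member reached a 2-fold difference on this scale in either direction, against 3.13% of all expressed rows that were at least 2-fold higher and 6.7% that were at least 2-fold lower. At 1.5-fold, 1 member was higher and 5 were lower, against 6.3% and 20.4% of all expressed rows. After centring, 11 members were at least 1.5-fold higher, a larger share than among all expressed rows, and 3 were at least 1.5-fold lower, a smaller share. As deposited, the log2 ratio was above 0 in 28 members and below 0 in 47, whereas 25.9% of all expressed rows were above 0. Of the 75 members, 51 (68%) lay above the median of all expressed rows, against 50.0% of all rows by construction. These include 23 members with a ratio between that median and 0, which take a positive sign after centring.

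The middle spread of the ratios was close to that of other rows and wider than that of related gene sets, while the extremes reached less far than in other rows. The middle part of the members, from the first to the last quartile, ran from -0.28 to 0.19 on the log2 scale. The same limits were -0.51 and 0.01 for all expressed rows, and -0.51 and 0.04 for the 6173 expressed rows whose mean FPKM lay within the members' range. They were -0.34 and -0.20 for cytosolic ribosomal proteins, and -0.11 and 0.18 for nuclear-encoded subunits of the respiratory chain and ATP synthase. In 19 members (25.3%) the FPKM values of the groups were within 1.1-fold of each other, against 15.8% of all expressed rows and 18.4% of the rows in the members' range. Examples are Mrpl37 at 7.03 and 7.09 FPKM, Mrps15 at 10.8 and 10.9, and Mrpl30 at 24.2 and 24.5, in maturation and in expansion.

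**Figure D2:**
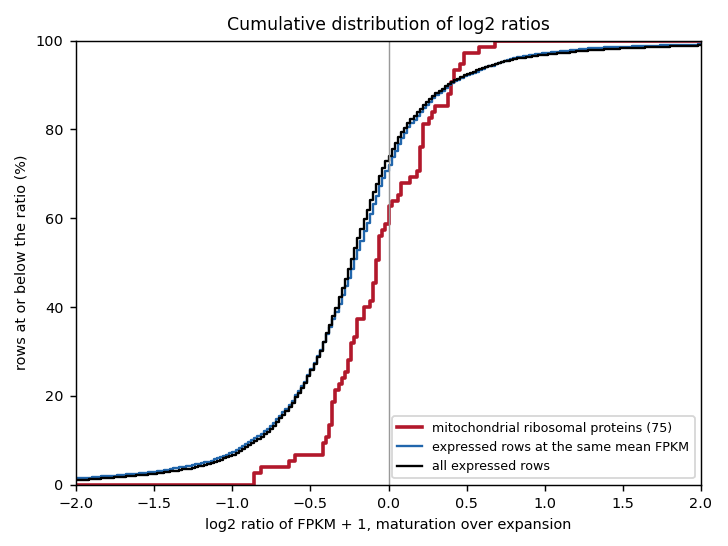
Cumulative percentage of rows at or below each log2 ratio of maturation over expansion, for the 75 members, for expressed rows at the members' mean FPKM and for all expressed rows. The member curve lies to the right of the others through its middle, with a median of -0.08 against -0.25 for all expressed rows before centring, and holds no member below -0.87 or above 0.68.

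The large subunit carries the peptidyl transferase centre, where peptide bonds form. Its 46 Mrpl rows had a median log2 ratio of -0.09, with 18 above 0, where 25.9% of all expressed rows were above 0. The stalk proteins, which recruit translation factors, summed to 34.2 FPKM in maturation and 41.7 in expansion. Mrpl12, the stalk protein that in human cells has also been reported to bind the mitochondrial RNA polymerase, was at 25.1 FPKM in maturation and 30.0 in expansion (chromosome 11, 120345983 to 120350068 on mm9). That is a 1.20-fold lower value and a log2 ratio of -0.25, the same as the median of all expressed rows to 2 decimals. Mrpl10, which anchors Mrpl12 on the ribosome, was at 6.67 FPKM in maturation and 9.08 in expansion. Mrpl11, at the stalk base, was at 2.45 and 2.59 FPKM. Mrpl12 was thus the most abundant of the 3 stalk genes in both groups. All 3 had a log2 ratio below 0 as deposited, as had 74.1% of all expressed rows. After centring, Mrpl11 lay above 0.

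Of 4 proteins whose bacterial counterparts lie close to the peptidyl transferase centre, 3 had a log2 ratio below 0, a share near the 74.1% of all expressed rows. Mrpl16 was at 8.14 FPKM in maturation and 11.4 in expansion, with a log2 ratio of -0.44 (chromosome 19, 11844905 to 11849446). Mrpl2 was at 8.19 and 11.2 FPKM, with a log2 ratio of -0.41 (chromosome 17, 46783197 to 46787081). Mrpl3 was at 9.42 FPKM in maturation and 11.1 in expansion. The one above 0 was Mrpl27, at 10.7 FPKM in maturation and 8.85 in expansion. After centring, Mrpl3 also lay above 0, which left Mrpl16 and Mrpl2 below.

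Around the exit tunnel, through which the new protein leaves, the members were mixed. Mrpl22 was at 9.27 FPKM in maturation and 8.04 in expansion, and Mrpl23 was at 21.5 and 18.7 FPKM. Mrpl24 was at 15.6 FPKM in maturation and 18.9 in expansion, and Mrpl47 was at 5.97 and 6.81 FPKM. Mrpl45, a mitochondria-specific protein that tethers the tunnel exit to the inner membrane, was at 3.82 and 4.85 FPKM. Summed over these 5 genes the level was 56.2 FPKM in maturation and 57.3 in expansion. The central protuberance, which faces the small subunit, was likewise mixed. Of its mitochondria-specific members, Mrpl48 was at 4.43 FPKM in maturation and 3.06 in expansion, Mrpl40 at 8.67 and 7.48, and Mrpl46 at 8.18 and 7.04. Mrpl38 was the lower one, at 5.06 FPKM in maturation and 6.64 in expansion.

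The highest ratio of all members belonged to Mrpl53, a mitochondria-specific large subunit protein. It was at 11.4 FPKM in maturation and 6.75 in expansion, 1.69-fold higher with a log2 ratio of 0.68 (chromosome 6, 83051510 to 83059926). Mrpl18, whose bacterial relative binds ribosomal RNA in the central protuberance, was at 31.0 FPKM in maturation and 20.6 in expansion (1.51-fold, log2 ratio 0.57; chromosome 17, 13104221 to 13108957). These were the only Mrpl rows with an FPKM ratio of at least 1.5 in the direction of maturation. Mrpl14 was at 15.999 FPKM in maturation and 11.3 in expansion, a log2 ratio of 0.46 (chromosome 17, 45823321 to 45835444). Mrpl48 had a log2 ratio of 0.42 (chromosome 7, 107697631 to 107789782). Mrpl55, at 7.55 FPKM in maturation and 5.39 in expansion, was at 0.42 as well (chromosome 11, 59016019 to 59019504). Mrpl49, at 7.27 and 5.28 FPKM, was at 0.40 (chromosome 19, 6046576 to 6057751). All 6 genes were thus between 1.38-fold and 1.69-fold higher in maturation, across low and high levels.

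At the other end stood Mrpl52, a mitochondria-specific protein and the most abundant member of the expansion group. It was at 36.8 FPKM in maturation and 66.6 in expansion, 1.81-fold lower with a log2 ratio of -0.84 (chromosome 14, 55045746 to 55048587). Mrpl50, also mitochondria-specific, was at 3.28 FPKM in maturation and 5.67 in expansion, with a log2 ratio of -0.64 (chromosome 4, 49525469 to 49533955). Mrpl36, a very small protein with a bacterial counterpart, was at 16.3 FPKM in maturation and 22.3 in expansion, with a log2 ratio of -0.43 (chromosome 13, 73468457 to 73497778). Mrpl52 and Mrpl50 were the only Mrpl genes past 1.5-fold lower. The other 22 Mrpl genes lay between log2 ratios of -0.37 (Mrpl33) and 0.37 (Mrpl28), with 7 above 0 and 15 below. Of all expressed rows, 74.1% were below 0.

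Of these 22, the most abundant was Mrpl20, at 33.7 FPKM in maturation and 26.0 in expansion, 1.296-fold higher with a log2 ratio of 0.36 (chromosome 4, 155177727 to 155182938). Mrpl28 was at 11.7 and 8.80 FPKM, Mrpl51 at 16.3 and 13.1, and Mrpl54 at 14.8 and 12.6, in maturation and in expansion. Mrpl13 was at 16.4 and 14.0 FPKM, Mrpl32 at 18.3 and 15.8, and Mrpl35 at 2.71 and 2.67. These were the 7 on the higher side, and all but Mrpl28 and Mrpl35 stood above 10 FPKM in both groups. Mrpl44, a protein with a ribonuclease III-like fold, was at 3.76 FPKM in maturation and 4.83 in expansion. Mrpl33 was at 13.4 and 17.7 FPKM, Mrpl19 at 1.78 and 2.57, and Mrpl4 at 5.88 and 7.83. Mrpl43 was at 7.13 and 9.36 FPKM, Mrpl1 at 1.65 and 2.27, and Mrpl39 at 5.36 and 6.57. Mrpl9, at 7.85 FPKM in maturation and 9.43 in expansion, was the last of those with a log2 ratio under -0.20, and Mrpl41, Mrpl21, Mrpl34, Mrpl15 and Mrpl17 were closer to 0.

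The small subunit binds the messenger RNA and reads its codons. The 29 rows with an Mrps symbol had a median log2 ratio of -0.08, with 10 above 0. Of these, 26 encode proteins of the small particle, with a median of -0.08 and 9 above 0. Among all expressed rows 25.9% were above 0. The summed FPKM of the 29 rows was 305 in maturation and 301 in expansion, beside 510 and 533 for the Mrpl rows. Whether the symbol groups differed from each other was not tested, since each gene has 1 value per group. Mrps12, the counterpart of a bacterial decoding-centre protein in which streptomycin resistance arises, was at 10.2 FPKM in maturation and 13.3 in expansion. Mrps7, of the head of the subunit, was at 10.5 and 11.1 FPKM, and Mrps2 was at 4.81 and 5.24. Mrps22, mitochondria-specific, was at 4.63 FPKM in maturation and 4.94 in expansion. Mrps12 was 1.31-fold lower in maturation and remained below 0 after centring, whereas Mrps7, Mrps2 and Mrps22 were within 1.1-fold and lay above 0 after centring.

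The lowest ratios of all 75 members belonged to a pair of Mrps genes. Mrps6, with a bacterial counterpart, was at 1.93 FPKM in maturation and 4.34 in expansion, 2.25-fold lower with a log2 ratio of -0.87 (chromosome 16, 92058567 to 92112472). Mrps27, a pentatricopeptide repeat protein found only in mitochondria, was at 1.66 FPKM in maturation and 3.84 in expansion, 2.31-fold lower with a log2 ratio of -0.86 (chromosome 13, 100114741 to 100185516). Without the pseudocount these were the 2 members at least 2-fold lower, against 15.1% of all expressed rows, and no member was at least 2-fold higher, against 4.24%. Mrps26, mitochondria-specific, was at 9.05 FPKM in maturation and 14.4 in expansion, with a log2 ratio of -0.62 (chromosome 2, 130389493 to 130391130). The loci of Mrps6 and Mrps27 are shared with other rows. Slc5a3, a sodium and inositol cotransporter gene at the Mrps6 locus, was at 0.0330 FPKM in maturation and 0.0932 in expansion. The row 6430562O15Rik at the Mrps27 locus was at 0.0747 and 0.184 FPKM.

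In the other direction Mrps16, which has a bacterial counterpart, was the most abundant member of the maturation group. It was at 44.7 FPKM in maturation and 32.1 in expansion, 1.39-fold higher with a log2 ratio of 0.46 (chromosome 14, 21210453 to 21212777). Mrps21 was next among the Mrps genes, at 35.0 FPKM in maturation and 33.9 in expansion, 1.03-fold higher with a log2 ratio of 0.05 (chromosome 3, 95666575 to 95674542). Mrps34, mitochondria-specific, was at 10.7 FPKM in maturation and 8.73 in expansion. Mrps36 was at 14.2 and 10.6 FPKM, 1.34-fold higher with a log2 ratio of 0.39 (chromosome 13, 101505895 to 101514614). It was named as a ribosomal protein but is now known as a component of the 2-oxoglutarate dehydrogenase complex of the citric acid cycle, so the symbol rule takes in a gene outside the ribosome. Mrps30 sits in the large particle in spite of its name and was at 5.93 FPKM in maturation and 7.25 in expansion, 1.22-fold lower with a log2 ratio of -0.25 (chromosome 13, 119168917 to 119176059). The other Mrps genes included Mrps14 at 8.09 FPKM in maturation and 6.84 in expansion, Mrps9 at 4.23 and 5.81, and Mrps35 at 3.94 and 5.40.

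Mammals have 3 genes related to the bacterial small subunit protein of the same number, Mrps18a, Mrps18b and Mrps18c, whose products occupy separate sites. Mrps18c holds the site of the bacterial protein and was at 25.7 FPKM in maturation and 18.5 in expansion, with a log2 ratio of 0.46 (chromosome 5, 101227778 to 101233486). Mrps18b, at another place in the small subunit, was at 12.6 FPKM in maturation and 13.7 in expansion (chromosome 17, 36029622 to 36053314). Mrps18a, a protein of the large subunit, was at 9.18 FPKM in maturation and 10.8 in expansion (chromosome 17, 46247953 to 46265857). Mrps18c was the highest of the 3 in both groups and the only one that was higher in maturation. Centring on all expressed rows leaves that order of ratios as it is and turns the Mrps18b and Mrps18a ratios positive.

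The ratios were compared between members with and without a bacterial counterpart, with classes taken from the known structure of the mammalian particle. Mrps18a and Mrps18b were counted as mitochondria-specific although they are related to a bacterial protein, so the classes do not strictly follow descent. The 46 members with a bacterial counterpart had a median log2 ratio of -0.08 and 18 above 0. The 28 mitochondria-specific members had a median of -0.12 and 9 above 0. All expressed rows had a median of -0.25 and 25.9% above 0, and 71.7% and 60.7% of the classes lay above that median. Of the 5 members at least 1.5-fold lower, Mrpl52, Mrpl50, Mrps27 and Mrps26 were mitochondria-specific, as was Mrpl53, the 1 member at least 1.5-fold higher. In both classes these were smaller shares than among all expressed rows, where 20.4% were at least 1.5-fold lower and 6.3% at least 1.5-fold higher. The summed FPKM of the bacterial class was 574 in maturation and 559 in expansion, and that of the mitochondria-specific class was 227 and 264. Mrpl52 alone supplied most of that last gap.

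Shorter transcripts tended to have higher levels and higher ratios. With transcript length taken as the median of a gene's protein-coding GENCODE M21 transcripts, the Spearman rho over the 75 members was -0.43 for mean FPKM and -0.23 for the log2 ratio. Over all 7060 expressed rows with a length the rho for the log2 ratio was -0.06. The 25 shortest members, from 405 to 803 bases, had a median log2 ratio of -0.03, and the 25 longest, from 1418 to 6073 bases, had -0.21. All expressed rows within those spans of length had medians of -0.22 and -0.28. Length thus moved with the ratio among the members, and its part in the differences was not tested. For some members the length exceeds the mm9 locus of the row, as for Mrps26, with 4278 bases at chromosome 2, 130389493 to 130391130. Such lengths cannot be those of the transcripts behind the FPKM values.

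A further 7 proteins of the mitochondrial ribosome carry other symbols and were looked up by name. Their median log2 ratio was 0.02, and all 7 lay above the median of all expressed rows. Ict1, a peptidyl-tRNA hydrolase built into the large subunit, was at 6.14 FPKM in maturation and 4.92 in expansion. Gadd45gip1, of the large subunit, was at 10.6 and 8.66 FPKM, and Mrp63 was at 6.06 and 5.005. Chchd1 was at 24.9 FPKM in maturation and 24.5 in expansion, and Aurkaip1, also of the small subunit, at 22.2 and 23.9. Ptcd3, a pentatricopeptide repeat protein, was at 6.69 and 7.75 FPKM, and Dap3, a GTP-binding protein first described in cell death, at 3.43 and 4.13. None was beyond 1.5-fold. The large subunit gene Mrpl42 is listed under an older name, D10Ertd322e, which the symbol rule does not take in, and was at 21.5 FPKM in maturation and 25.2 in expansion. Its log2 ratio was -0.22, lower than that of each of the 7, and it was not counted in their median.

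Genes that build and serve the mitochondrial ribosome had lower median ratios than its proteins. All 13 expressed mitochondrial translation factors had a log2 ratio below 0, as had 74.1% of all expressed rows. Their median was -0.36, and 2 of the 13 were at least 1.5-fold lower, against 20.4% of all expressed rows. Mtif2, the initiation factor that brings in the first transfer RNA, was at 2.28 FPKM in maturation and 4.97 in expansion, a log2 ratio of -0.86. Tufm, the elongation factor Tu of mitochondria, was at 8.65 FPKM in maturation and 13.5 in expansion, a log2 ratio of -0.59. Mtfmt, which formylates the initiator transfer RNA, was at 0.792 and 1.59 FPKM, and Tsfm, the exchange factor for Tufm, was at 4.34 and 6.23. After centring, 6 of the 13 factors lay above 0 and 7 below.

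Of 22 expressed genes of mitoribosome assembly and ribosomal RNA modification, 3 were above 0 and 19 below, where 25.9% of all expressed rows were above 0. Their median log2 ratio of -0.24 was close to the -0.25 of all expressed rows, and 12 of the 22 lay above that of all rows. The row 1110032A13Rik, which is Rbfa, an assembly factor of the small subunit, was at 5.35 FPKM in maturation and 16.1 in expansion, 3.01-fold lower. Mett11d1, now named Mettl17, was at 0.815 and 1.79 FPKM. Dhx30, an RNA helicase, was at 2.77 FPKM in maturation and 4.07 in expansion. Tfb1m, which dimethylates the small subunit's ribosomal RNA, was one of the higher genes, at 3.22 FPKM in maturation and 2.22 in expansion. Among 15 genes of mitochondrial transcription and RNA processing 1 was above 0 and 14 were below. Their median of -0.25 equalled that of all expressed rows to 2 decimals, with 7 of the 15 above it. Tfb2m, a transcription initiation factor related to Tfb1m, was at 1.72 FPKM in maturation and 5.09 in expansion, 2.96-fold lower. Polrmt, the mitochondrial RNA polymerase, was at 0.921 and 1.78 FPKM, Rg9mtd1 (Trmt10c), part of mitochondrial ribonuclease P, at 3.39 and 6.12, and Ptcd2 at 4.27 and 6.83. Rbfa and Tfb2m were the only genes of these lists at least 2-fold lower on the log2 scale with the pseudocount.

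The products of the mitochondrial ribosome join nuclear-encoded subunits of the respiratory chain. The 74 nuclear rows of the respiratory chain and ATP synthase had a median log2 ratio of 0.02, with 66 above the median of all expressed rows. The 79 expressed rows of cytosolic ribosomal proteins had a median of -0.26, with 36 above that median and 1 above 0. The ratios of the mitochondrial ribosomal proteins lay between these on the median and ranged more widely than the cytosolic ones, with quartiles of -0.28 and 0.19 against -0.34 and -0.20.

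**Figure D3:**
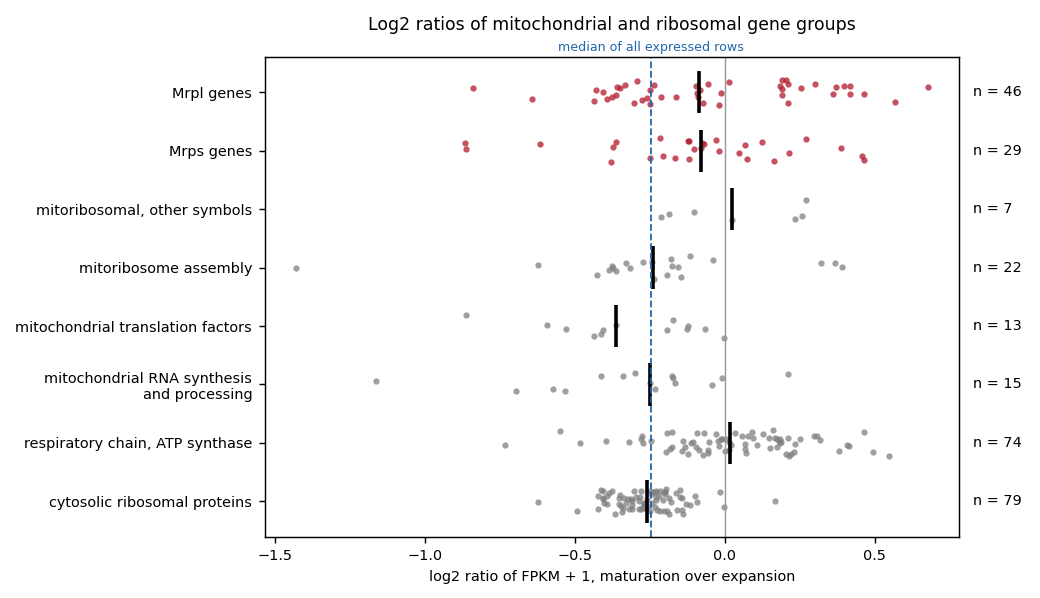
Log2 ratio of FPKM plus 1, maturation over expansion, for each expressed gene of 8 groups, with a bar at each group median and a dashed line at the median of all expressed rows (-0.25). The Mrpl and Mrps medians (-0.09 and -0.08) lie right of that line and the translation factor median (-0.36) lies left of it; centring moves every point by the same amount.

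The members were spread over 17 autosomes, with 10 on chromosome 11, 8 on chromosome 17 and 7 on chromosome 6. Many had a close neighbour on the opposite strand. In the GENCODE M21 annotation of GRCm38, 32 of the 75 members (42.7%) had a protein-coding gene on the other strand whose start was within 1000 bases of their own. The same held for 1370 of 6983 other expressed protein-coding rows (19.6%). The 32 members formed 31 distinct pairs, because Mrpl46 and Mrps11 are each other's neighbour, and in 22 pairs both genes were expressed. Both genes lay on the same side of the median of all expressed rows in 13 of these 22, where each side holds 50.0% of all expressed rows. The share among neighbour pairs of other genes was not computed, and whether neighbours moved together was not tested.

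Mrpl46 and Mrps11 start 42 bases apart on opposite strands in RefSeq (GRCm38.p6), and encode a large and a small subunit protein. In GENCODE M21, which defined the pairs, the gap between their starts is -412 bases, where a negative gap means overlapping genes. Mrpl46 was 1.16-fold higher in maturation, as given above, and Mrps11, at 6.32 FPKM in maturation and 5.54 in expansion, was 1.14-fold higher. The Mrps27 neighbour is Ptcd2, a mitochondrial RNA processing gene, and was 1.60-fold lower in maturation where Mrps27 was 2.31-fold lower. Mrps12 shares its start region with Sars2, the mitochondrial seryl-tRNA synthetase gene. Sars2 was at 1.63 FPKM in maturation and 2.15 in expansion, a fold of 0.756 beside 0.761 for Mrps12. Mrps18c lies next to the DNA helicase gene Helq, which was at 1.79 and 1.23 FPKM, 1.46-fold higher in maturation. Other neighbours went apart. Mrpl36 was lower while Ndufs6, a complex I subunit gene, was at 29.1 FPKM in maturation and 25.8 in expansion. Mrpl14 was higher while Tmem63b, a membrane channel gene, was at 0.868 and 1.86 FPKM, and Mrpl49 was higher while Fau, a cytosolic ribosomal protein gene, was at 309 and 376 FPKM.

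**Figure D4:**
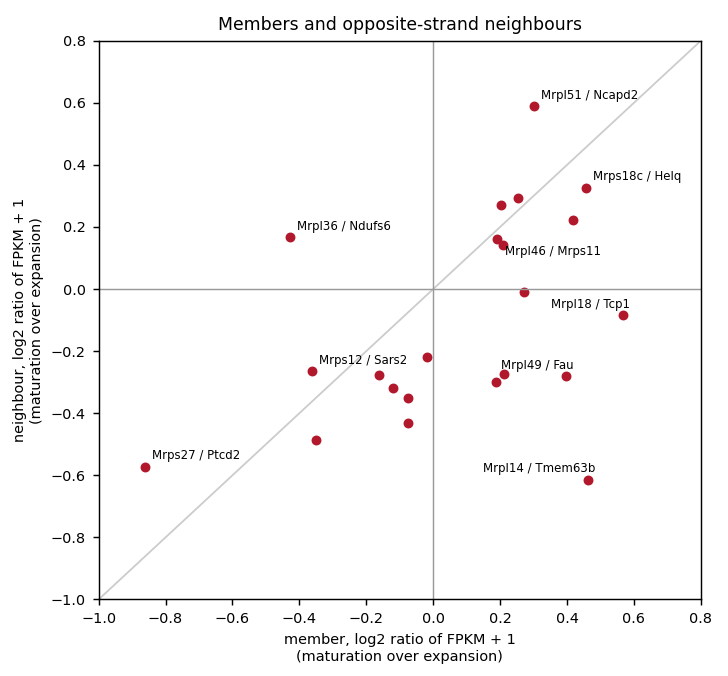
Log2 ratio of FPKM plus 1, maturation over expansion, of each member (x axis) against its opposite-strand neighbour (y axis) for the 22 pairs in which both genes were expressed, with the line of equal ratios. Mrps27 with Ptcd2 lies below 0 and Mrps18c with Helq above 0 on both axes, while Mrpl14 with Tmem63b and Mrpl36 with Ndufs6 lie on opposite sides of 0 as deposited.

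Promoters of the members were read from RefSeq (GRCm38.p6), as windows of 250 bases before and 50 after the start, and 66 of the 75 members had a window. The windows were searched on both strands for 4 motifs, and a gene counted when any of its windows held the motif. GCGCANGCG, of the nuclear respiratory factor NRF1, was found in 15 members (22.7%), against 18.2% of 5692 other expressed genes and 7.03% of all 27025 genes. CCGGAAGT, of the ETS family with the mitochondrial gene regulator GABPA, was found in 12 members (18.2%), against 11.3% and 4.31%. AAGATGGC, of YY1, was found in 11 members (16.7%), against 6.48% and 3.19%. The E-box CACGTG, bound by MYC among others, was found in 5 members (7.58%), against 13.4% and 8.09%. At least 1 of the motifs stood in 37 member promoters (56.1%) and in 40.7% of other expressed genes, and no member window held different motifs that overlapped. The median GC content of the windows was 58.2% in members and 61% in other expressed genes. The matches are descriptions of letters and do not show binding. The median log2 ratio was -0.01 in members with the YY1 motif and -0.09 in those without it, and -0.01 with and -0.08 without the E-box. It was -0.14 with and -0.08 without the ETS motif, and -0.24 with and -0.07 without the NRF1 motif. These medians rest on 5 to 15 genes with each motif and were not tested. Of the genes of these factors, Myc was lowest in maturation relative to expansion, at 8.84 FPKM in maturation and 17.1 in expansion, a log2 ratio of -0.88. Nrf1 was at 5.42 FPKM in maturation and 4.65 in expansion, Gabpa at 3.05 and 3.37, Gabpb1, its partner, at 2.69 and 2.11, and Yy1 at 5.58 and 7.39.

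The windows below are those of the members with the highest and the lowest log2 ratio (Mrpl53 and Mrps6), of Mrpl12, of the Mrps11 and Mrpl46 pair, and of Mrps27 and Mrps18c, which have opposite-strand neighbours and 2 motifs each. The last 3 were chosen after their values were seen. Mrpl32, Mrpl36 and Mrpl37 also have such neighbours and 2 motifs each, but are not printed. Each printed window runs 5′ to 3′ on the gene's own plus strand, with motif matches in capitals and the start of the gene after base 250. Their places on GRCm38.p6 are chr6:83108858-83109157, chr16:92058086-92058385, chr11:120484387-120484686, chr7:78782881-78783180, chr13:99344536-99344835 and chr5:100798509-100798808.
Mrpl53: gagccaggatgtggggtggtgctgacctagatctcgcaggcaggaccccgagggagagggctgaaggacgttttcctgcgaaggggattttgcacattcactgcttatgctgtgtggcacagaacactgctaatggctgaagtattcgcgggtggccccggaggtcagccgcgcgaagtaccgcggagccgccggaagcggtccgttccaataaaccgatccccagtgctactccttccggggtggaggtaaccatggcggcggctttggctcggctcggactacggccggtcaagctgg
Mrps6: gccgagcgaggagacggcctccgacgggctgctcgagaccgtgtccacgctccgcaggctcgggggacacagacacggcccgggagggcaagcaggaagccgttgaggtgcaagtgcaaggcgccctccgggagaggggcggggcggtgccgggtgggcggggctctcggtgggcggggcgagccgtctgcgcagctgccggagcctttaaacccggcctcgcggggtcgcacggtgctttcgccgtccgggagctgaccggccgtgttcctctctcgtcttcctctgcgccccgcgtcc
Mrpl12: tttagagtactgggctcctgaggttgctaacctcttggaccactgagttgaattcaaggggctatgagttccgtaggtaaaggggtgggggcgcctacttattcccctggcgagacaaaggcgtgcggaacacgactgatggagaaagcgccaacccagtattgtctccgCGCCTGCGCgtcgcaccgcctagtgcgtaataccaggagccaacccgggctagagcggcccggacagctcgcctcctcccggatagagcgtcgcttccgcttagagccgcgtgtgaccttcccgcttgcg
Mrps11: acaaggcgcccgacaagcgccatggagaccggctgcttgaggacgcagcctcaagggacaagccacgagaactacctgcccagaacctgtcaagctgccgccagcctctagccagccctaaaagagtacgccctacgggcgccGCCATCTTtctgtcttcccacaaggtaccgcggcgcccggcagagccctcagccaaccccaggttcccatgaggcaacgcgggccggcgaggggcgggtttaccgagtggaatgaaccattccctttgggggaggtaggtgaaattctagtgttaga
Mrps27: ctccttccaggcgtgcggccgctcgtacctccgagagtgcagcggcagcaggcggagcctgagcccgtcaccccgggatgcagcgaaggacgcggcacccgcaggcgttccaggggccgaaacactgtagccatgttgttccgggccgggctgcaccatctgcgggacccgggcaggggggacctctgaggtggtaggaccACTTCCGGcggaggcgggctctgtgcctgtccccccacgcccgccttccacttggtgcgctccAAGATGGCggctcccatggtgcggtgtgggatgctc
Mrps18c: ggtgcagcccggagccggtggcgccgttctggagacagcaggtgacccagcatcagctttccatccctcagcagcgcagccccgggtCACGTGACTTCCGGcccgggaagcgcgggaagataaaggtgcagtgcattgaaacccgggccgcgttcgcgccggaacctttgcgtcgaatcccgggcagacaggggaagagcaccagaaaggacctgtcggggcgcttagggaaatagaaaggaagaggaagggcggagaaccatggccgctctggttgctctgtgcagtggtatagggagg

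None of the 4 motifs was found in the Mrpl53 and Mrps6 windows. The Mrpl12 window holds an NRF1 match upstream of the start, and the Mrps11 window, which also contains the start of Mrpl46, holds a YY1 match. In the Mrps27 window an ETS match lies upstream of the start and a YY1 match just after it, and in that of Mrps18c an E-box is directly followed by an ETS match. Both genes thus hold an ETS match, the one with a log2 ratio of -0.86 and the other with 0.46.

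Of the 75 members, 13 have a locus shared with another row, among them Mrpl53, Mrpl48, Mrpl49, Mrpl36, Mrps18b, Mrps27 and Mrps6, so fragments may be divided among rows. For these members the deposited start and end are the same as those of the other row. The positions printed above are thus the shared span and need not be the extent of the gene itself. Mrps28, at 13.9 FPKM in maturation and 14.2 in expansion, shares its locus with LOC100504173, a row at 419 and 431 FPKM. MicroRNA, snoRNA and like rows made up 25.4% of all summed FPKM in maturation and 17.6% in expansion. Their share of the mapped fragments, by which FPKM is scaled, is not known, and their part in the other ratios was not tested. No fragment totals were used, so the depth is unknown. Among olfactory receptor rows with a span of 957 bases, the smallest value above 0 recurred in 4 rows of each group, at 0.00506 FPKM in maturation and 0.00567 in expansion. The lowest member stood at least 310 times above such smallest values in maturation and 308 times in expansion, over 14 spans.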

How the data were processed

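RNA of mouse ESREs was sequenced after 1 day of maturation and in expansion, with 1 GEO sample per group. RNA was extracted with a Qiagen kit and libraries were made with a Bioo Scientific NextFlex kit, per the labels' protocols. The authors deposited a single FPKM value for each gene in each group. The submitters' processing notes name Cuffdiff 2.0.2 and mm9. The aligner, gene annotation, filters and any pooling of duplicates are not stated there.

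Rows at 1 FPKM or more in a group were kept (9263). The log2 ratio was log2((maturation + 1)/(expansion + 1)), which understates differences of low genes; folds are ratios of FPKM. Table starts count from 0 (of 175 microRNA rows within 1 base of their RefSeq hairpin length, 175 matched it so and 0 if counted from 1) and are printed from 1. The members, lists, motifs and naming rule were chosen with earlier results of these data known. The rule names the 8 highest and 8 lowest ratios, the 5 highest levels per group, fixed genes of structural interest, and 4 genes per further list. The neighbour pairs and extra promoters were chosen after values were seen. Of 60 list entries, 53 matched by symbol and 7 by RefSeq synonym. Protein sequences were not used here. No test was possible with 1 value per group. Python 3.11.15, pandas 2.3.3 and numpy 2.4.6 were used, and the ratio code was tested on simulated data.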

Additional observations from a re-analysis of the deposited data

How the results depend on the processing

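No paired analysis was possible because each group has 1 deposited value, and no replicate could be left out for the same reason. Of 61 alternative values, 42 stayed within 0.1 on the log2 scale or within 1.5 times a count, and 19 moved. Centred on all expressed rows, the median log2 ratio was 0.16 over all members, 0.16 over Mrpl and 0.17 over Mrps genes, and the summed FPKM ratio was 1.16 against 0.978 as deposited. With this centring, 11 members passed 1.5-fold higher and 3 passed it lower. Those cuts lie near log2 ratios of 0.34 and -0.82 before centring. At or below 0.34 lay 85.3% of members and 89.2% of all expressed rows. At or below -0.82 lay 4% of members and 10.8% of all expressed rows. Shares over all rows at the other settings are not given here. Rescaled without small RNA rows, the medians were 0.021 over all members and 0.023 over Mrpl genes, the summed ratio 1.06, with 3 members past 1.5-fold higher and 3 past it lower. A pseudocount of 0.1 put 2 members past 1.5-fold on the higher side and 2, Mrps6 and Mrps27, past 2-fold on the lower side. A pseudocount of 5 left 0 members past 1.5-fold higher and 1 past 1.5-fold lower. A minimum of 5 FPKM left 3 at least 1.5-fold lower, as fewer genes remained. Leaving out members at shared loci gave 0 past 1.5-fold higher and 3 past it lower. With no filter, 47 members lay below the median of all rows, against 24, since rows near 0 bring that median to about 0. Unknown depth and the lack of replicates limit every value.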
